A study of Mus musculus with 8 samples.

Results

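The 5 mouse genes that encode the subunits of calcineurin, Ppp3ca, Ppp3cb, Ppp3cc, Ppp3r1 and Ppp3r2, were followed on arrays of embryonic stem cells in which 1 splice variant of Ppp3cb had been targeted. They were chosen by platform gene symbol and are 5 of the 19935 genes tested. Each was read by 1 probe set that carried only its symbol, and 0 shared probe sets named any of them. The cells were R1, a mouse embryonic stem cell line, kept in pluripotent culture and harvested 48 hours post transfection, although the sample titles use the word differentiation. The 8 arrays, 1 per sample, fell into 3 groups: 3 of cells given a control small interfering RNA (siRNA), 3 given siRNA 1 against CnAb1 and 2 given siRNA 2 against CnAb1. No treatment other than transfection is named for any group, and all groups share the same line.

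Calcineurin is the calcium- and calmodulin-dependent protein phosphatase that cyclosporin A and FK506 inhibit. It pairs a catalytic A subunit with a calcium-binding B subunit, and its best known substrates are the NFAT transcription factors, which it dephosphorylates so that they enter the nucleus. Ppp3ca, Ppp3cb and Ppp3cc encode the alpha, beta and gamma catalytic subunits, of which gamma is best known from testis. Ppp3r1 encodes the widely expressed B subunit and Ppp3r2 its testis counterpart. CnAb1 is a splice form of the beta subunit that ends in a different carboxy terminus in place of the autoinhibitory domain. The question put to these genes was how the targeted gene and its partner subunits read after each siRNA.

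The sequences around the start are shown for 3 of the genes, those for which a promoter was found. RefSeq promoters (250 bases before to 50 after the start, build GRCm38.p6) matched 3 of the 5 genes, and Ppp3ca and Ppp3cc were not matched. Capitals mark the GC box, GGGCGG on either strand. They read 5′ to 3′ on the strand of the gene:
Ppp3cb, chr14:20546524-20546823, minus strand: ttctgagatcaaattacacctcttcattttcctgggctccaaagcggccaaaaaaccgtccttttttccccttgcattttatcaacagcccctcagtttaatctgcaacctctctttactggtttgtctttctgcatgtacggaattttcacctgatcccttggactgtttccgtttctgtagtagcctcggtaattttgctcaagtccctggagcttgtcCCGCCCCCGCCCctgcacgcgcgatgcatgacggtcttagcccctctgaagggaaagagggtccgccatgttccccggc
Ppp3r1, chr11:17159048-17159347, plus strand: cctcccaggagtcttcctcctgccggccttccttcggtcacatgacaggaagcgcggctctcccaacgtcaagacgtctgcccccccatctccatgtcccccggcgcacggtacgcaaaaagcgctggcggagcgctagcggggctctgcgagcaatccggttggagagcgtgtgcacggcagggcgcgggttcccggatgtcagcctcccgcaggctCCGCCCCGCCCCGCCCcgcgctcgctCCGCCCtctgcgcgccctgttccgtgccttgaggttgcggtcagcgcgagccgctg
Ppp3r2, chr4:49681934-49682233, minus strand: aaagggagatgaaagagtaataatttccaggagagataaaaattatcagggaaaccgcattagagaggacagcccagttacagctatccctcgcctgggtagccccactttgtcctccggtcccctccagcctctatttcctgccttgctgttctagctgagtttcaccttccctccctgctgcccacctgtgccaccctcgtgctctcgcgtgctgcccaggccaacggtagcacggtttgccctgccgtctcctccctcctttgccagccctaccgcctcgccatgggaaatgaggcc
The Ppp3cb window held 2 GC boxes and that of Ppp3r1 held 4, all on the reverse strand, of which 3 share a base with a neighbour. The Ppp3r2 window held 0. A GC box is in 35.7% of the 32851 RefSeq promoters of that length. The windows held 13, 36 and 11 CpG dinucleotides in the order shown, against a median of 7 over all promoters. Of all promoters 62.1%, 93.8% and 58.6% held fewer than these. The G and C content of the windows was 51.0%, 70.7% and 57.0%, against a median of 52.7%. The letters CCAAT, found in 37.4% of promoters, and TATAAA, found in 13.6%, were in none of the 3 windows on either strand. GGAAA, the core that NFAT factors bind, occurred 4 times in the Ppp3cb window, 0 times in that of Ppp3r1 and 4 times in that of Ppp3r2, and 61.3% of promoters hold it. These matches describe letters in a window and not sites in use, and nothing on these arrays measures the promoters themselves.

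Values are log2 probe set values summarised by robust multi-array averaging (RMA), so a difference of 1 is a 2-fold difference. They are compared for a gene between arrays and not between genes. Array medians lay between 8.12 and 8.20, and no pair of arrays held identical values. The leading axis of variation (45.2% of the variance) had siRNA 1 replicates 1 and 2 at its ends, with scores of 13.2 and -15.7, and so did not follow the groups. Of 10 pluripotent stem cell markers, 10 were brighter on every array than the 95th percentile of 1027 olfactory receptor genes, which are not expected in these cells and serve here as a reference for dim probe sets. The same held for 9 of 10 fibroblast (feeder cell) markers, 4 of 7 macrophage and blood markers, 7 of 8 neuron markers and 3 of 8 spermatid and testis markers. That reference lay at 7.26 to 7.53, under the median of each array, so most probe sets on an array exceed it. Passing it does not show that a cell type is present. Whether replicates were separate cultures is not stated, so the p-values rest on a spread that may be purely technical, and the number of arrays limits the precision.

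The beta catalytic subunit gene Ppp3cb, from which CnAb1 is spliced, read higher after siRNA 2 and on 1 of the 3 siRNA 1 arrays, and not lower as a group mean with either siRNA. The control arrays read 10.70, 10.55 and 10.64 for replicates 1 to 3. With siRNA 1 replicate 1 read 10.52, replicate 2 read 10.68 and replicate 3 read 11.09. With siRNA 2 the values were 11.07 and 11.16. Both siRNA 2 arrays thus lay above all controls, siRNA 1 replicate 3 lay among the siRNA 2 values, and the other siRNA 1 arrays lay just below the controls and inside their range. Whether siRNA 1 replicate 3 was transfected or labelled differently from the rest of its group cannot be told from these data, so the siRNA 1 mean and the comparison between the siRNAs rest on its label. In bulk RNA such as this, a change in the share of cells of a type and a change of RNA per cell cannot be told apart.

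The Ppp3cb group means were 10.63 ± 0.07 (SD, n = 3) with control siRNA, 10.76 ± 0.29 (SD, n = 3) with siRNA 1 and 11.11 ± 0.07 (SD, n = 2) with siRNA 2. Against control the difference was 0.49 for siRNA 2 (95% interval 0.18 to 0.79, or 1.40-fold with an interval of 1.13 to 1.73) and 0.13 for siRNA 1 (interval -0.14 to 0.41). Limma's Benjamini-Hochberg adjusted p over all genes was 0.794 and 0.88, so neither passed the threshold of 0.05. These values rest on a spread shared by the 3 groups, and for Ppp3cb the siRNA 1 arrays were the most spread. In a fit of control and siRNA 2 alone the SE was 0.06 in place of 0.14. Limma's adjusted p was then 0.155, which did not pass either. An exact permutation test (two-sided) gave p = 0.1 for siRNA 2, the smallest that 10 splits allow, and 0.7 for siRNA 1, where 20 splits also allow no p under 0.1. The siRNA 1 difference turned to -0.029 without replicate 3 and was 0.25 without replicate 1. With array weights, which lean most on replicate 3, it was 0.39 and passed (limma's adjusted p = 0.0355, in a range of 0.0355 to 1 over all settings), in a fit that called 7.20% of all genes. Only 8 other genes differed as far from control after siRNA 2 in either direction, which with Ppp3cb makes 0.0451% of genes. After siRNA 1 12.5% of genes differed as far as Ppp3cb did. The platform names this probe set for Ppp3cb as a whole and for no splice form, so its values do not check how far CnAb1 itself was reduced.

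**Figure D1:**
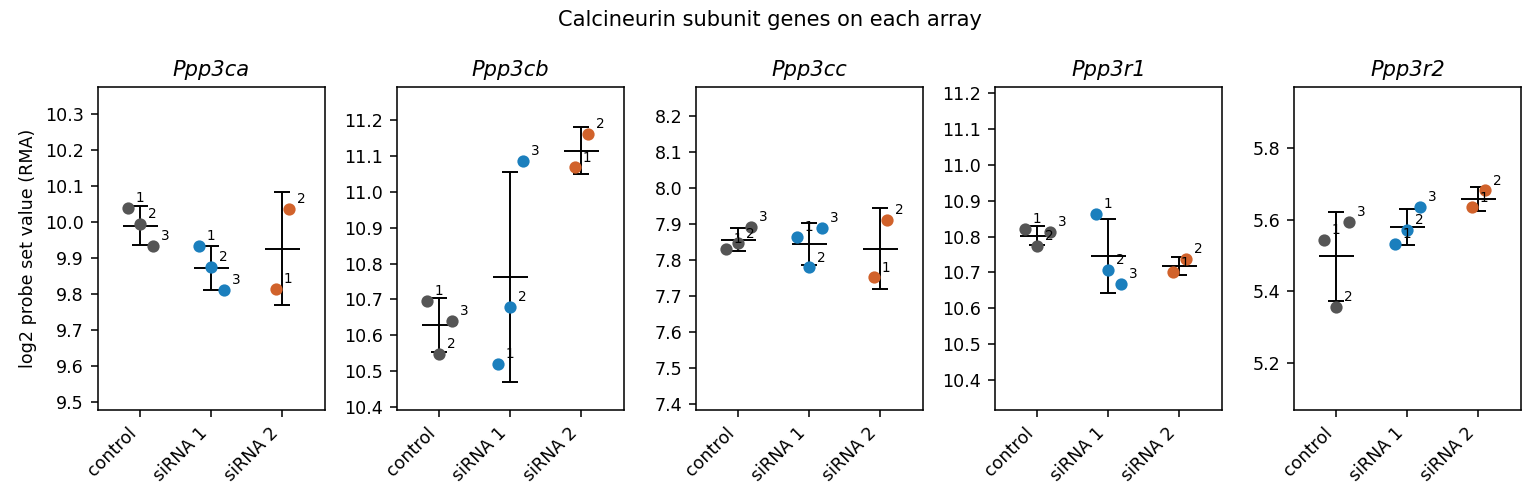
Log2 probe set value of each calcineurin subunit gene on each of the 8 arrays, by siRNA group, with replicate numbers beside the points, a bar at the group mean and whiskers of 1 SD (n = 3, 3 and 2); every panel spans the same log2 height. In the Ppp3cb panel siRNA 1 replicate 3 (11.09) lies with the siRNA 2 arrays (11.07 and 11.16), above controls of 10.55 to 10.70, while the other genes spread less.

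Among the 5 genes Ppp3cb varied most within groups. Its within-group SD was 0.19 on the log2 scale, larger than that of 97.3% of all genes and of 99.4% of the 1000 genes closest to it in mean value, whose median SD was 0.07. That spread came from siRNA 1, where the SD of 0.29 exceeded that of 98.7% of genes. Its SDs in the control and siRNA 2 groups (0.07 each) exceeded those of 67.9% and 54.4% of genes. The siRNA 1 group was also the most spread for genes at large, with a median SD of 0.10 against 0.06 in each of the other groups. Ppp3ca (0.09), Ppp3cc (0.07), Ppp3r1 (0.07) and Ppp3r2 (0.09) had within-group SDs near the median of all genes, 0.09, or under it. Those pool the groups, and single groups could be wider. The SD of Ppp3r2 in the control group (0.13) exceeded that of 91.9% of genes. For Ppp3ca with siRNA 2 (0.16) the share was 90.0%.

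**Figure D2:**
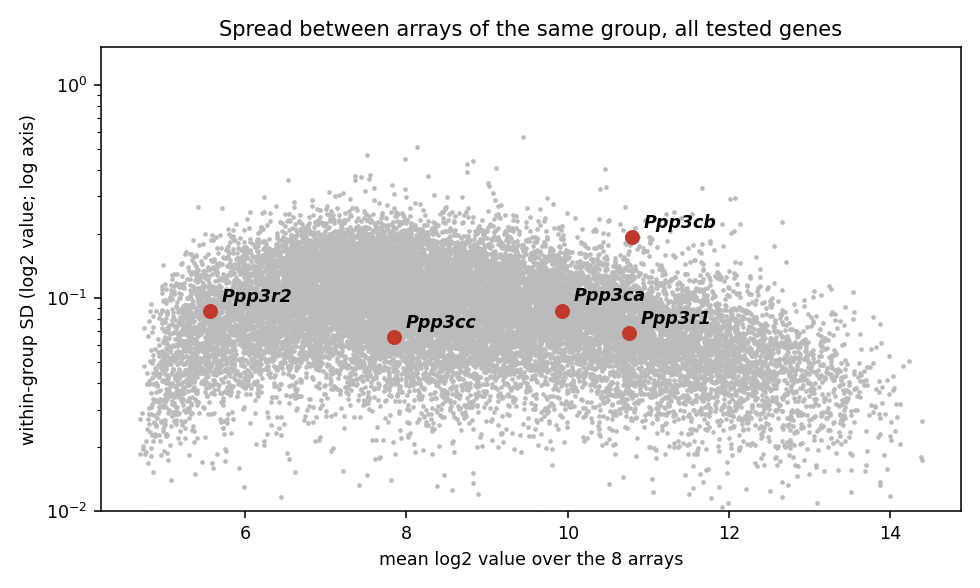
Within-group SD of the log2 value (log axis) against the mean log2 value over the 8 arrays for all 19935 genes tested (grey), with the calcineurin subunit genes in red. Ppp3cb (SD 0.19) lies at the upper edge for genes of its brightness, and the other 4 lie within the bulk.

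Ppp3ca, the alpha catalytic subunit, read slightly lower on most siRNA arrays. Control replicates 1 to 3 read 10.04, 10.00 and 9.93. The siRNA 1 arrays read 9.93, 9.88 and 9.81, each below every control, though replicate 1 only just, and the siRNA 2 arrays read 9.81 and 10.04. The siRNA 2 replicates thus parted, replicate 1 near the lowest siRNA 1 value and replicate 2 near the highest control. Group means were 9.99 ± 0.05 (SD, n = 3), 9.87 ± 0.06 (SD, n = 3) and 9.93 ± 0.16 (SD, n = 2). The difference from control was -0.12 for siRNA 1 (interval -0.27 to 0.04) and -0.07 for siRNA 2 (interval -0.24 to 0.11), with adjusted p of 0.87 and 0.907 in limma. The siRNA 2 sign rested on 1 array, since without replicate 1 the difference was 0.046.

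Ppp3cc, the gamma catalytic subunit, showed no direction. It read 7.83, 7.85 and 7.89 with control siRNA, 7.87, 7.78 and 7.89 with siRNA 1, and 7.75 and 7.91 with siRNA 2. The siRNA 2 arrays enclosed all controls. Differences from control were -0.011 for siRNA 1 (interval -0.15 to 0.12) and -0.025 for siRNA 2 (interval -0.18 to 0.13), and both signs turned under other settings of the fit. A median of 15 of the 1027 olfactory receptor genes were brighter on an array. Spermatid and testis markers, cells in which this gene is best known, averaged 7.07 to 7.15 on control arrays, 7.06 to 7.18 with siRNA 1 and 7.06 to 7.20 with siRNA 2, and Tnp1, Tnp2, Acrv1, Spata19 and Odf1 were the 5 not above the olfactory reference on every array.

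Ppp3r1, the B subunit that partners the alpha and beta catalytic subunits in most tissues, read a little lower on 4 of the 5 siRNA arrays. Controls read 10.82, 10.77 and 10.81. With siRNA 1 the arrays read 10.86, 10.71 and 10.67, so that replicate 1 was the highest array of all and the other 2 lay below the controls. With siRNA 2 they read 10.70 and 10.74, both below the controls. The differences of -0.06 for siRNA 1 (interval -0.19 to 0.08) and -0.08 for siRNA 2 (interval -0.24 to 0.07) were not called by limma (adjusted p 0.899 and 0.871). Without siRNA 1 replicate 1 the siRNA 1 difference was -0.11, without replicate 2 it was -0.037 and without replicate 3 it was -0.017. On siRNA 1 replicate 1, where Ppp3r1 was highest and Ppp3cb lowest, the fibroblast, the macrophage and blood and the pluripotent stem cell markers were also highest on average and the neuron and the spermatid and testis markers lowest. The part of these markers in the subunit values was not tested. The mean of the fibroblast markers was 8.48 to 8.58 on control arrays, 8.50 to 8.70 with siRNA 1 and 8.53 to 8.54 with siRNA 2. That of the macrophage and blood markers was 8.24 to 8.51, 8.30 to 8.65 and 8.36 to 8.41 in the same order, with Ptprc, Adgre1 and Cd14 not above the olfactory reference on every array. Neuron markers averaged 8.45 to 8.49, 8.38 to 8.49 and 8.43 to 8.50, and pluripotent stem cell markers 12.67 to 12.71, 12.65 to 12.73 and 12.64 to 12.69.

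Ppp3r2, the testis B subunit, was dim on every array. A median of 662 of the 1027 olfactory receptor genes were brighter (589 to 780 over the arrays), so these values do not show whether the transcript was detected. It read 5.54, 5.36 and 5.59 with control siRNA, 5.53, 5.57 and 5.63 with siRNA 1 and 5.63 and 5.68 with siRNA 2. Both siRNA 2 arrays lay above the controls, of which replicate 2 was low. The differences were 0.08 for siRNA 1 (interval -0.07 to 0.24) and 0.16 for siRNA 2 (interval -0.01 to 0.33), with adjusted p of 0.871 and 0.812 in limma. Without control replicate 2 they were 0.011 and 0.09. By contrast 0 olfactory receptor genes were brighter than Ppp3cb or Ppp3r1 on any array, and at most 1 was brighter than Ppp3ca.

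Over the subunits together, 0 of 5 were called at an adjusted p under 0.05 in any of the 4 comparisons, where limma called 0% of the 19935 genes. With the average of both siRNAs against control 2 were higher and 3 lower, with a median difference of -0.018 beside 0.011 over all genes, of which 56.1% were higher. Ppp3cb differed by 0.31 (interval 0.06 to 0.56, adjusted p = 0.769 in limma), Ppp3ca by -0.09, Ppp3cc by -0.018, Ppp3r1 by -0.07 and Ppp3r2 by 0.12. For Ppp3cb the difference between the means of the 5 siRNA and 3 control arrays was 0.27. Its exact permutation p was 0.196, where 56 splits allow 0.0179 at the smallest. The Ppp3ca difference was -0.036 without siRNA 2 replicate 1 and -0.15 without siRNA 2 replicate 2, and that of Ppp3r2 was 0.050 without control replicate 2. The small Ppp3cc difference moved by over 1.5 times without any of 6 arrays and turned to 0.022 without siRNA 2 replicate 1. At an unadjusted p under 0.05 there was 1 member, Ppp3cb, and 6.31% of all genes (1257). For siRNA 1 there were 0 members against 5.33% of genes (1063), for siRNA 2 again Ppp3cb alone against 6.07% (1211), and between the siRNAs Ppp3cb alone against 4.48% (893).

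Groups that did not overlap were counted as well. Taking all 5 siRNA arrays against the 3 controls, the groups separated for 0 of 5 members and for 4.74% of genes. With siRNA 1 they separated for 1 of 5, Ppp3ca (lower), against 10.8% of genes. With siRNA 2, where 2 arrays make it easier to meet, they separated for 3 of 5, Ppp3cb and Ppp3r2 (higher) and Ppp3r1 (lower), against 29.4% of genes. Between the siRNAs they separated for 0 of 5, against 15.4% of genes. The siRNA comparisons with control share the 3 control arrays and are not independent of each other.

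Whether the siRNAs differed from each other was tested directly. Ppp3cb read 0.35 higher with siRNA 2 than with siRNA 1 (interval 0.05 to 0.66), a size reached by 0.171% of genes, but siRNA 1 replicate 3 lay between the siRNA 2 values, limma's adjusted p was 1 and the exact permutation p was 0.3. Without siRNA 1 replicate 3 the difference was 0.51, and without siRNA 1 replicates 1 and 2 together it was 0.028. Ppp3ca differed by 0.05 (interval -0.12 to 0.22), Ppp3cc by -0.014 (interval -0.16 to 0.14), Ppp3r1 by -0.028 (interval -0.18 to 0.13) and Ppp3r2 by 0.08 (interval -0.09 to 0.25). For these 4 the interval stayed within 1.5-fold in either direction, as it did for 99.6% of all genes.

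**Figure D3:**
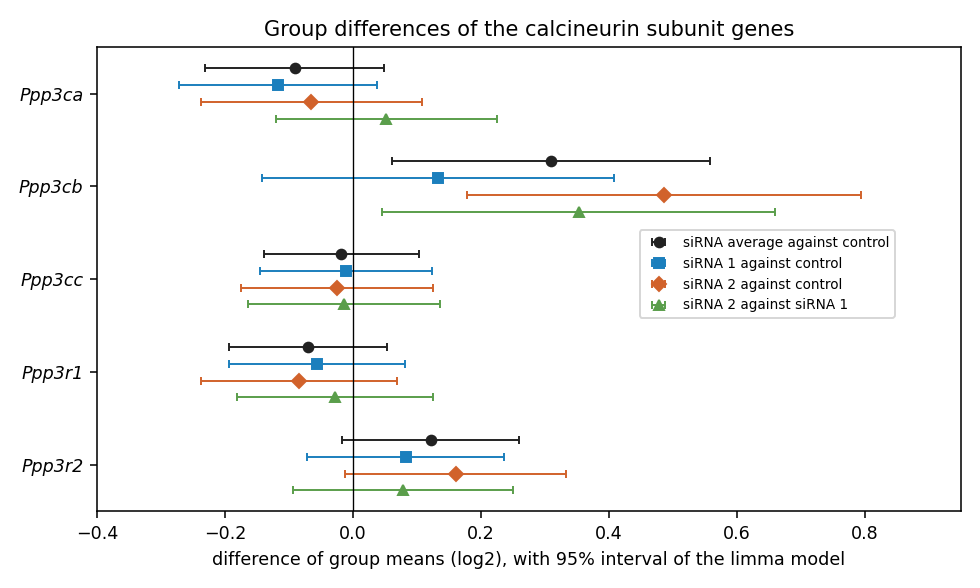
Differences of group means (log2) of the 5 calcineurin subunit genes in 4 comparisons, with the 95% interval of the limma model fitted to all 8 arrays. The Ppp3cb intervals for siRNA 2 (0.18 to 0.79), for the siRNA average (0.06 to 0.56) and between the siRNAs (0.05 to 0.66) exclude 0 before adjustment over all genes, and those of the other 4 genes include it.

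Setting Ppp3cb against the other subunits on the same array cancels any shift common to that array. Ppp3cb minus the mean of Ppp3ca and Ppp3cc, the other catalytic subunits, was 1.76, 1.63 and 1.73 on the control arrays. It was 1.62, 1.85 and 2.24 with siRNA 1 and 2.28 and 2.19 with siRNA 2. The same 3 arrays were highest as for Ppp3cb alone, but siRNA 2 replicates 1 and 2 exchanged places among them. In addition siRNA 1 replicate 2 now lay above every control, which makes 4 of 5 siRNA arrays. On that array Ppp3cb (10.68) was inside the control range, while Ppp3ca (9.88) and Ppp3cc (7.78) read below every control. By contrast siRNA 1 replicate 1 lay just below every control. Group means were 1.71 ± 0.07 (SD, n = 3), 1.90 ± 0.31 (SD, n = 3) and 2.24 ± 0.07 (SD, n = 2). Ppp3cb minus its partner Ppp3r1 was -0.13, -0.22 and -0.17 on the controls, -0.34, -0.029 and 0.42 with siRNA 1 and 0.37 and 0.42 with siRNA 2. These are differences between probe sets, so only their movement between arrays can be read, and no test was made of them.

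The genes whose values followed Ppp3cb most closely over the 8 arrays were Lad1 (Pearson r = 0.978), Rhox9 (r = 0.976) and Mta3 (r = 0.973), out of 9721 genes above the median brightness. Lad1 encodes ladinin, Rhox9 a reproductive homeobox factor and Mta3 a subunit of the NuRD chromatin complex. They were picked for the likeness, and 33 genes had an r over 0.9, so the values are a description. With 1 array left out the lowest r of the 3 genes was 0.961. Rhox9 read 10.86, 10.79 and 10.87 with control siRNA, 10.84, 10.82 and 11.34 with siRNA 1 and 11.39 and 11.47 with siRNA 2, so that it too was high on siRNA 1 replicate 3 and the siRNA 2 arrays. Lad1 read 10.11, 10.10 and 10.17 with control siRNA, 10.08, 10.17 and 10.40 with siRNA 1 and 10.43 and 10.54 with siRNA 2. Mta3 moved less, from 12.65 on siRNA 1 replicate 1 to 12.79 on siRNA 2 replicate 2. None of the 3 was called for the siRNA average (limma's adjusted p 0.769 for Lad1 and Rhox9, 0.814 for Mta3).

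**Figure D4:**
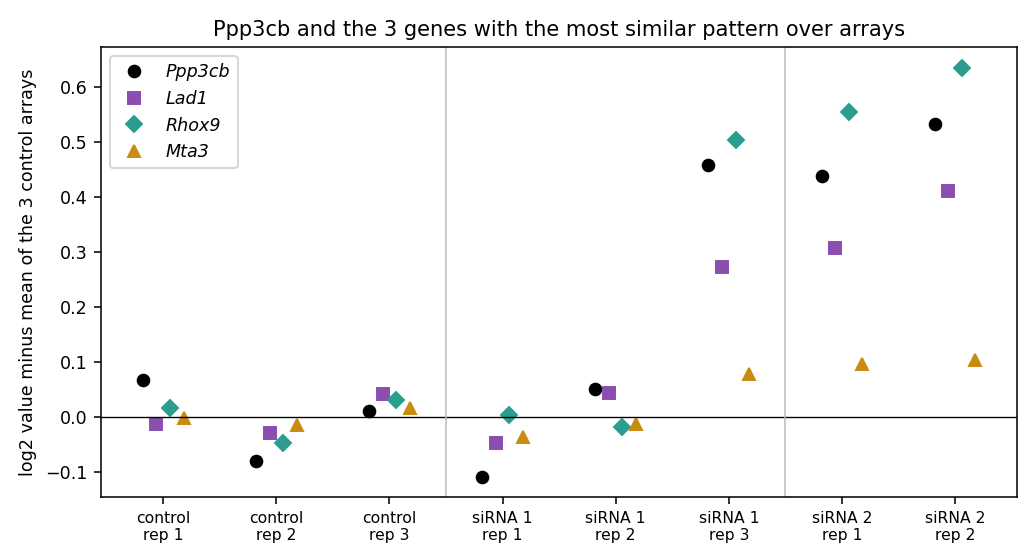
Log2 value minus the mean of the 3 control arrays, on each array, for Ppp3cb and the 3 genes with the highest Pearson r to it over the 8 arrays. All 4 lie highest on siRNA 1 replicate 3 and the siRNA 2 arrays, with r of 0.973 to 0.978 to Ppp3cb.

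The other subunits had other nearest genes by the same measure, each with 9 to 103 genes over an r of 0.9. For Ppp3ca they were the kinase gene Stk38l (r = 0.981), Ggps1 of isoprenoid synthesis (r = 0.977) and the ephrin receptor gene Epha2 (r = 0.969). For Ppp3r1, with 103 such genes, they were Fam210a (r = 0.981), the ubiquitin ligase gene Nedd4l (r = 0.974) and Mcmbp (r = 0.971), a binding partner of the replicative MCM helicase. For Ppp3cc, with 9, they were Intu (r = 0.962), Vps37c (r = 0.955) and Nfx1 (r = 0.952). For Ppp3r2 they were Flot1 (r = 0.974), Tent5b (r = 0.959) and Tmem98 (r = 0.958), and there r fell to as low as 0.859 when 1 array was left out. No gene was named for more than 1 subunit.

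The rest of the pathway was read from 6 lists with 60 tested genes, of which 33 were higher and 27 lower for the siRNA average, with a median difference of 0.008, and 0 were called. At an unadjusted p under 0.05 there were 4 of the 60 (6.67%), beside 6.31% of all genes. The 5 siRNA arrays did not overlap the controls for 3 of the 60 (5.0%), Rcan3, Bad and Ppp6c, beside 4.74% of all genes. The genes named below are those of smallest p in each list. Of these 18 genes, 11 had a difference that moved by over 1.5 times when 1 array was left out. Upstream of calcineurin, 3 of 9 calmodulin and calcium entry genes were higher and 6 lower (median -0.020). Stim2, a calcium sensor of the endoplasmic reticulum, differed by -0.16 (SE 0.06), and the calmodulin genes Calm2 and Calm3 by -0.06 (SE 0.07) and 0.04 (SE 0.05). Without control replicate 1 that of Calm2 was -0.0058 and without control replicate 3 it was -0.12, while that of Calm3 was 0.014 without control replicate 3. Stim2 lay below all controls on 4 of 5 siRNA arrays, with limma's adjusted p at 0.769.

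Of 12 genes for binding partners and inhibitors of calcineurin 5 were higher and 7 lower (median -0.001). Rcan3, of the regulator family that inhibits calcineurin, read 8.84 ± 0.01 (SD, n = 3) with control siRNA while the 5 siRNA arrays read 8.90 to 9.07, with no overlap, as for 4.74% of all genes. Its difference was 0.11 (SE 0.05). Rcan1, its relative, differed by -0.06 (SE 0.06) and Myoz2, a muscle protein that binds calcineurin, by 0.07 (SE 0.05). Myoz2 was not above the olfactory reference on any array. Limma's adjusted p was 0.769, 0.836 and 0.789.

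Of the 5 NFAT factors 4 were higher and 1 lower (median 0.05). Nfatc1 and Nfatc4, which calcineurin activates, differed by 0.07 (SE 0.05) and 0.05 (SE 0.05). The Nfatc1 difference was 0.023 without control replicate 2 and 0.11 without control replicate 3. Nfat5, a factor of osmotic stress that calcineurin does not activate, differed by -0.15 (SE 0.12), with 9.86 on siRNA 1 replicate 3 against 10.35 to 10.46 on the other siRNA 1 arrays and 10.35 to 10.45 on the controls, and by -0.063 without that array. Limma called 0 of the 5.

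Of 17 other substrates of calcineurin 13 were higher and 4 lower (median 0.035). Bad, a promoter of apoptosis that calcineurin dephosphorylates, read 8.18 to 8.24 on the controls and 8.28 to 8.46 on the siRNA arrays, above the controls on 5 of 5 (4.74% of all genes separated in this way), and differed by 0.13 (SE 0.05). Synj1 and Amph, which act in endocytosis, differed by -0.12 (SE 0.05) and -0.17 (SE 0.09). Limma's adjusted p was 0.769 for each.

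Among 7 EF-hand proteins related to the B subunit 5 were higher and 2 lower (median 0.038). Tesc, tescalcin, differed by 0.16 (SE 0.07), Hpcal1, a neuronal calcium sensor, by -0.14 (SE 0.06) and Kcnip1 by 0.10 (SE 0.06). Kcnip1 was not above the olfactory reference on any array. Among 10 catalytic subunits of other phosphatases of the PPP family, which calcineurin belongs to, 3 were higher and 7 lower (median -0.039), with differences from -0.07 to 0.04. Ppp6c differed by -0.07 (SE 0.05) and lay below all controls on 5 of 5 siRNA arrays, beside the 4.74% of genes that separated, Ppp2ca, the catalytic subunit of PP2A, by -0.06 (SE 0.05) and the dim Ppef1 by -0.07 (SE 0.05). None of these was called by limma (adjusted p 0.769 to 0.809). The Ppp3cb difference of 0.31 was larger in size than that of any of the 60 pathway genes, which ran from -0.17 to 0.16. Its SE was 0.11. Limma's adjusted p for Ppp3cb was 0.769, as it was for Bad, Stim2 and Synj1.

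**Figure D5:**
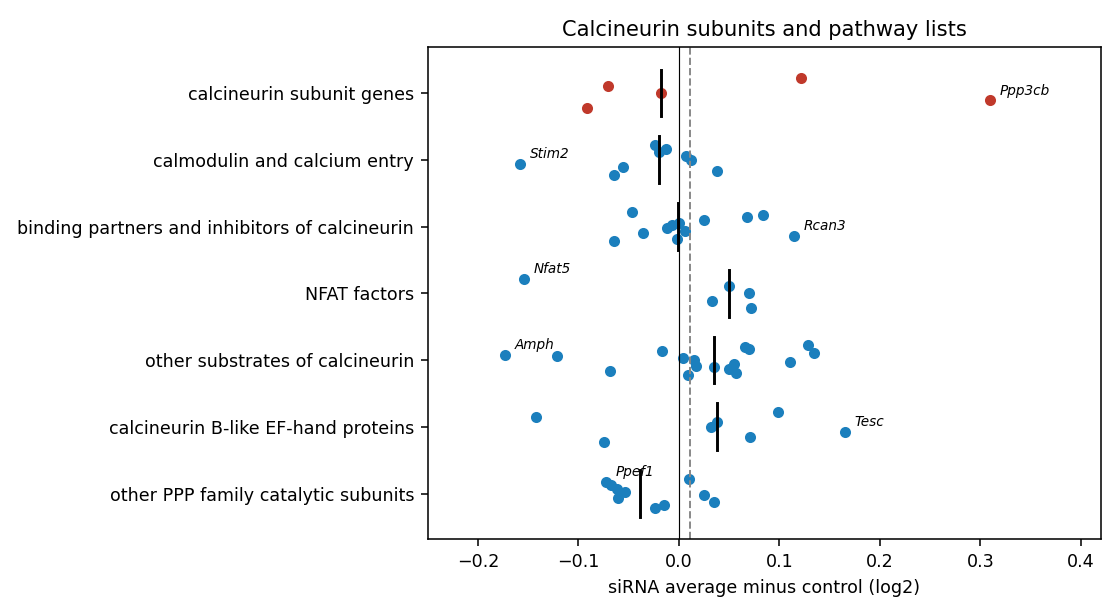
Difference of the siRNA average from control (log2) for each calcineurin subunit gene (red) and each tested gene of 6 pathway lists (blue), with a black bar at the median of each list and a dashed line at the median of all genes (0.011). The gene farthest from 0 is named in each list; Ppp3cb lies at 0.31 and the 60 pathway genes between -0.17 and 0.16.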

How the data were processed

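Total RNA of 8 samples was measured on Affymetrix gene arrays. The deposited log2 values come from RMA, run by the authors per the submitters' processing notes. RMA subtracts background, equalises the arrays and condenses probes into probe sets, which hides any shift common to most genes. The version is not given in the sources used here, nor are the array library file and the genome build. Of 28815 probe sets 21780 carried a single symbol in the platform table, 1605 carried more and 5430 carried none there. The brightest probe set on average stood for each of 19935 genes. Limma 3.58.1 in R 4.3.3 (lmFit, eBayes) fitted group means to all 8 arrays, with two-sided p-values adjusted by Benjamini-Hochberg over all genes and a threshold of 0.05. It was first run on simulated data with independent noise and no shift common to an array. That run was required only to recover most of the largest changes planted, so it does not vouch for differences as small as those reported here. Exact permutation tests enumerated all splits of the arrays. Intervals are at 95%.

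The named genes were the subunits, from each pathway list up to 3 members, those of smallest unadjusted p in the siRNA average comparison, and the 3 genes above median brightness with the highest Pearson r to each subunit, predicted gene models left out. The members and lists were chosen with earlier results of these data known. The alternatives were repeated quantile normalization, median centring, a brightness filter, other moderation, array weights, other choices of probe sets, separate fits for each pair of groups, a replicate block, the array lower quartile as a covariate and leaving out arrays. Deviations of same-numbered arrays from their group means correlated from -0.547 to 0.219. With groups of 2 or 3 arrays the deviations within a group depend on each other, so these correlations cannot settle whether the numbers mark pairs. The main fit did not treat the numbers as pairs, and the replicate block is the alternative that uses them. Python 3.11.15, pandas 2.3.3, scipy 1.17.1 and matplotlib 3.10.9 were used.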

Additional observations from a re-analysis of the deposited data

How the results depend on the processing

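Of 796 values recomputed under the alternatives 772 were marked as unchanged. For a gene that meant the same sign and the same side of the threshold. For a count of called genes it meant 0 again. For a difference between subunits on 1 array it meant the same sign and a change under the pooled within-group SD. The main fit called 0 genes, and leaving out an array of a group not compared does not move a difference. Many of these values could therefore hardly change, and the total does not measure stability. Array weights called 14 genes for the siRNA average and 1436 for siRNA 1, and gave Ppp3cb a difference of 0.39 for siRNA 1, the call given above. That fit weighted siRNA 1 replicate 3 at 3.56, replicate 1 at 0.31 and replicate 2 at 0.41. Trend and robust moderation called 3 genes between the siRNAs, none of them a subunit gene. Every other fit called 0 genes, while genes at an unadjusted p under 0.05 ranged from 443 to 4271 for the siRNA average, 427 to 5791 for siRNA 1, 579 to 2295 for siRNA 2 and 421 to 2090 between the siRNAs.

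Ppp3cb kept its sign for siRNA 2 under every alternative tried (0.44 to 0.57). Leaving out 1 array at a time it ranged from -0.029 to 0.25 for siRNA 1. The small Ppp3cc differences turned sign most often. With the lower quartile as a covariate they were 0.013 for the siRNA average, 0.022 for siRNA 1 and 0.0029 for siRNA 2. Without siRNA 1 replicates 1 and 2 together they were 0.0044 and 0.034 for the siRNA average and siRNA 1. With array weights siRNA 1 gave 0.014, and between the siRNAs centring gave 0.0071. Leaving out 1 array, Ppp3cc ranged from -0.058 to 0.022 for the siRNA average, -0.034 to 0.022 for siRNA 1, -0.10 to 0.054 for siRNA 2 and -0.094 to 0.066 between the siRNAs. Ppp3ca ranged from -0.18 to 0.046 for siRNA 2 and from -0.059 to 0.16 between the siRNAs. Between the siRNAs Ppp3r1 was 0.033 with array weights, 0.051 without siRNA 1 replicates 1 and 2 together and -0.067 to 0.031 without 1 array. For the siRNA average the named pathway genes kept their direction wherever an alternative gave a value. They were picked by smallest p in that same comparison on these arrays, which favours a kept sign, so this is no support for their directions. Their size did not hold, since 1 left-out array moved 11 of 18 by over 1.5 times. The causes were not tested. With the replicate number as a block Ppp3cb was 0.57 above control for siRNA 2, Ppp3cc was 0.0062 between the siRNAs, and 0 genes were called, as without it. The brightness filter left out Ppp3cc and Ppp3r2, which have no value there. The arrays give no detection calls, so for Ppp3r2 the signal over background is unknown.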
